A study of Homo sapiens with 6 samples.

Results

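The genes described here are 10 genes of chromosome condensation, spindle assembly and cell division: MKI67, TOP2A, TOP2B, ANLN, PRC1, ECT2, RACGAP1, CIT, TPX2 and CEP55. They were taken by symbol from the deposited gene count table, which lists 35474 genes, and all 10 were present and passed the filter on low counts that left 20776 genes for testing. The cells were A549, a human lung adenocarcinoma line. One group of 3 cultures, siBAP18, was transfected with small interfering RNA against BAP18 (gene C17orf49), a chromatin-associated protein, and the other group of 3 cultures, siCtrl, received non-specific siRNA. RNA was taken 48 h after transfection. The labels call the cultures biological replicates and do not say which siRNA, or how many, was used, so a difference between the groups is that of 1 transfected line at 1 time point.

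Total counts were 42094524 to 56548620 per library. C17orf49 had 743, 751 and 705 counts in the siCtrl libraries, replicate 1 first, and 120, 137 and 108 in the siBAP18 libraries (log2 fold change -2.65, SE 0.111, edgeR adjusted p = 7.31e-16). All 10 markers of A549 and of epithelial cells were detected in every library, while markers of leukocytes, endothelium and fibroblasts, of which 8 of 11 were listed, summed to 1.10 to 1.73 RPKM (reads scaled by library depth and gene length), most of it COL1A1, against 5245 to 7154 for the A549 markers. Mitochondrially encoded genes took 6.86% to 7.43% of the counts in siCtrl and 5.27% to 6.14% in siBAP18, and the summed A549 markers were 6919 to 7154 RPKM in siCtrl and 5245 to 5764 RPKM in siBAP18. Single markers did not move alike. KRT7 ran from 548 to 613 RPKM in siCtrl and from 713 to 836 RPKM in siBAP18. CDH1 ran from 10.1 to 10.7 RPKM in siCtrl and from 4.02 to 4.25 RPKM in siBAP18. The part of these shifts, or of the mitochondrial one, in the results below was not tested.

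Ki-67, the product of MKI67, coats chromosomes in mitosis and is the common histological marker of dividing cells, while the type II topoisomerases pass one DNA duplex through another so that replicated chromosomes can be condensed and separated. As the cell divides, the spindle is built with the help of TPX2, antiparallel microtubules are bundled by PRC1 at the spindle midzone, ECT2 and RACGAP1 switch on RhoA at the cortex, anillin (ANLN) and citron kinase (CIT) organise the contractile ring and the midbody, and CEP55 recruits the machinery that cuts the last bridge. Most of these genes are transcribed late in the cell cycle, through the cell cycle homology region (CHR), a promoter element bound by DREAM and MuvB complexes, often together with CCAAT boxes bound by NF-Y.

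The promoters are shown for the proliferation marker MKI67, for both type II topoisomerases, and for ANLN and ECT2, members of the group with the lowest fold changes. RefSeq promoter sequences on GRCh38.p14, each reaching from 250 bases before to 50 bases after a transcription start, were matched for 8 of the 10 genes, all but RACGAP1 and TPX2, and TOP2B and ECT2 each have 2 starts. Sequences run 5′ to 3′ on the gene's own strand. Capitals mark TTTGAA (the CHR) and CCAAT on either strand, so that their reverse complements also stand in capitals.
MKI67 (chr10:128126374-128126673, minus strand): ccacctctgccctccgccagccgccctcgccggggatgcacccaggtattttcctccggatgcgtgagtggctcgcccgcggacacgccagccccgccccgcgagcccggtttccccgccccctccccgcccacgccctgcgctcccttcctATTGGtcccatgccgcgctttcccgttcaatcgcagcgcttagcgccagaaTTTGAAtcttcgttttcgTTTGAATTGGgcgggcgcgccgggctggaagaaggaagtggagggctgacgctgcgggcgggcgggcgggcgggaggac
TOP2A (chr17:40417847-40418146, minus strand): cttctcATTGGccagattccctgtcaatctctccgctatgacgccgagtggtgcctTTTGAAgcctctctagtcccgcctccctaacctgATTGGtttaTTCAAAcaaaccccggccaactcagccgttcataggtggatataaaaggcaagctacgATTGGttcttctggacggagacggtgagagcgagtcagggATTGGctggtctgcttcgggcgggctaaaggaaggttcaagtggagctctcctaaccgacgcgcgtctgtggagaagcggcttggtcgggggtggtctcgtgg
TOP2B start 1 (chr3:25664323-25664622, minus strand): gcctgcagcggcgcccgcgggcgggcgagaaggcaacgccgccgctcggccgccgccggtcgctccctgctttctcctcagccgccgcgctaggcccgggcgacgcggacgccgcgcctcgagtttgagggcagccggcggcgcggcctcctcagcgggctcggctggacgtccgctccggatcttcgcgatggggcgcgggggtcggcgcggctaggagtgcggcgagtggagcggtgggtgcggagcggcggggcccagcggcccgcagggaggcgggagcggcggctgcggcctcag
TOP2B start 2 (chr3:25664858-25665157, minus strand): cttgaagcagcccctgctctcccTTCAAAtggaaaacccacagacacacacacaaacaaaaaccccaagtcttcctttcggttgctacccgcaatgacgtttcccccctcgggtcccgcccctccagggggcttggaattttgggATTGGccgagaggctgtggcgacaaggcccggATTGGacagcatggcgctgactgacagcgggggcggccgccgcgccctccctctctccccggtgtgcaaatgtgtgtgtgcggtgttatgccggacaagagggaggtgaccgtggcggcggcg
ANLN (chr7:36389612-36389911, plus strand): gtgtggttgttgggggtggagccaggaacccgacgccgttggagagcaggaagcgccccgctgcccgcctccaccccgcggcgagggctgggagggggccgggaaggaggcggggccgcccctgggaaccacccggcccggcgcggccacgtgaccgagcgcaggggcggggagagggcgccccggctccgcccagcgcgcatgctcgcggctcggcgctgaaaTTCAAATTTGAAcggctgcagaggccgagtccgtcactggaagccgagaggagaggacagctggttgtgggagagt
ECT2 start 1 (chr3:172750476-172750775, plus strand): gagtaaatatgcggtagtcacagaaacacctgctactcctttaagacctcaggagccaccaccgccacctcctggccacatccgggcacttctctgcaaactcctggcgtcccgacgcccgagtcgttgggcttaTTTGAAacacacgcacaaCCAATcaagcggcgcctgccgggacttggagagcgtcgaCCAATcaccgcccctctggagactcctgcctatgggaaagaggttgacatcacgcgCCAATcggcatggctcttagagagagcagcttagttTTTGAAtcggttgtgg

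TTTGAA was found on either strand in a promoter of 8 of the 8 genes, against 15.2% of 35116 promoters of the same length and 14.1% of the 11493 tested genes with a promoter. Within 50 bases of the start it was found for 6 of the 8 genes, against 4.62% of promoters. In MKI67 the word stood at positions -47 to -42 and -29 to -24, counted from the start base as position 1, and the last base of the second copy was shared with a reversed CCAAT at -24 to -20. In ANLN a reversed copy at -26 to -21 was directly followed by a forward copy at -20 to -15, and PRC1 held 1 copy at the same place, -20 to -15. In CEP55 a reversed copy spanned the start itself, from -3 to 3, and in CIT and ECT2 the nearest copies lay after it, at 11 to 16 and 35 to 40. The topoisomerases had their copies farther out, at -194 to -189 and -151 to -146 in TOP2A and at -227 to -222 in the second TOP2B promoter, while the first TOP2B promoter held none of the words searched. CCAAT was found for 7 of the 8 genes, all but ANLN, with 4 copies in TOP2A. It was held by 34.6% of promoters and 42.5% of the tested genes with a promoter. Within 50 bases of the start CCAAT was found for 3 genes, against 10.7% of promoters. For both words the share within 50 bases is per promoter, while a gene with several starts counted if any of them held the word. The share of tested genes within that distance was not counted. The CHR variant TTCGAA and the E2F words TTTCGCGC and TTTGGCGC were in none of these windows. They were in 1.45%, 0.515% and 0.652% of all promoters, and in 2.43%, 1.01% and 1.27% of the tested genes with a promoter. Other forms of the CHR and of the E2F site were not searched, so a window without these words may hold one. Among tested genes with a promoter, TTTGAA was held by 20.3% of the 453 that were lower past both thresholds used below, by 14.0% of the 4935 that did not pass the test and by 12.1% of the 453 that were higher past both thresholds. A word match is a description of the sequence, not evidence that the site is bound.

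**Figure D1:**
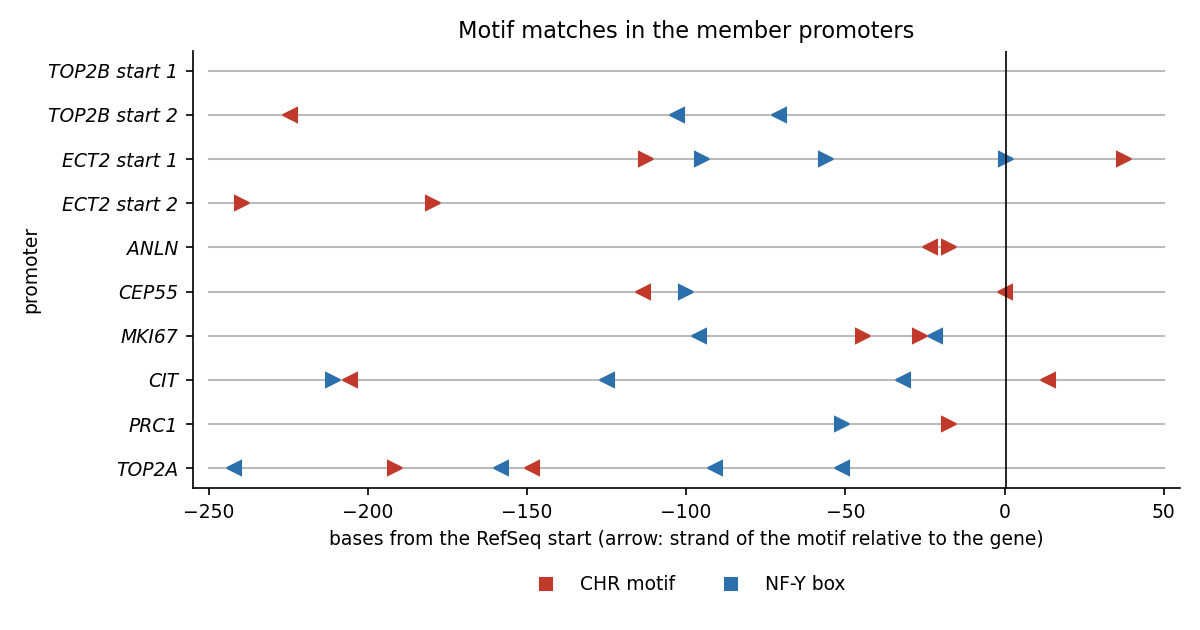
Matches to the CHR motif (red) and the NF-Y box (blue) in the 10 promoters of 8 genes, by distance in bases from the RefSeq transcription start (vertical line), with the arrow giving the strand. Matches to TTTGAA, the CHR word drawn, lie within 50 bases of the start in 6 genes. The TTTGAA matches of TOP2A and TOP2B lie farther upstream, and CHR forms other than TTTGAA and TTCGAA were not searched.

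All 10 genes had less RNA in siBAP18 than in siCtrl. CPM (counts scaled by library depth with the TMM method) of the 10 genes summed to 1626, 1650 and 1659 in siCtrl and to 889, 946 and 830 in siBAP18, and the median gene stood at 54.7%, 57.7% and 52.8% of its siCtrl mean in siBAP18 replicates 1, 2 and 3. In every one of the 10 genes all siBAP18 libraries were below all siCtrl libraries, which holds for 29.0% of all genes tested. By edgeR's quasi-likelihood test, 10 of 10 were lower at an adjusted p under 0.05 (Benjamini-Hochberg over 20776 genes), against 25.1% of all genes, and none was higher, against 24.5%. ANLN, TOP2A, MKI67, CEP55 and ECT2 were also past the fold threshold, a log2 fold change of -1 or lower, against 3.74% of all genes. Tested as log2(RPKM + 1) with limma, CEP55 (-0.99) and ECT2 (-0.98) missed the fold threshold. The median log2 fold change was -0.87, with a range of -1.41 to -0.32, and the median of all genes was 0.00102. In RNA from whole cultures, fewer cells in division and less RNA of these genes per cell cannot be told apart.

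**Figure D2:**
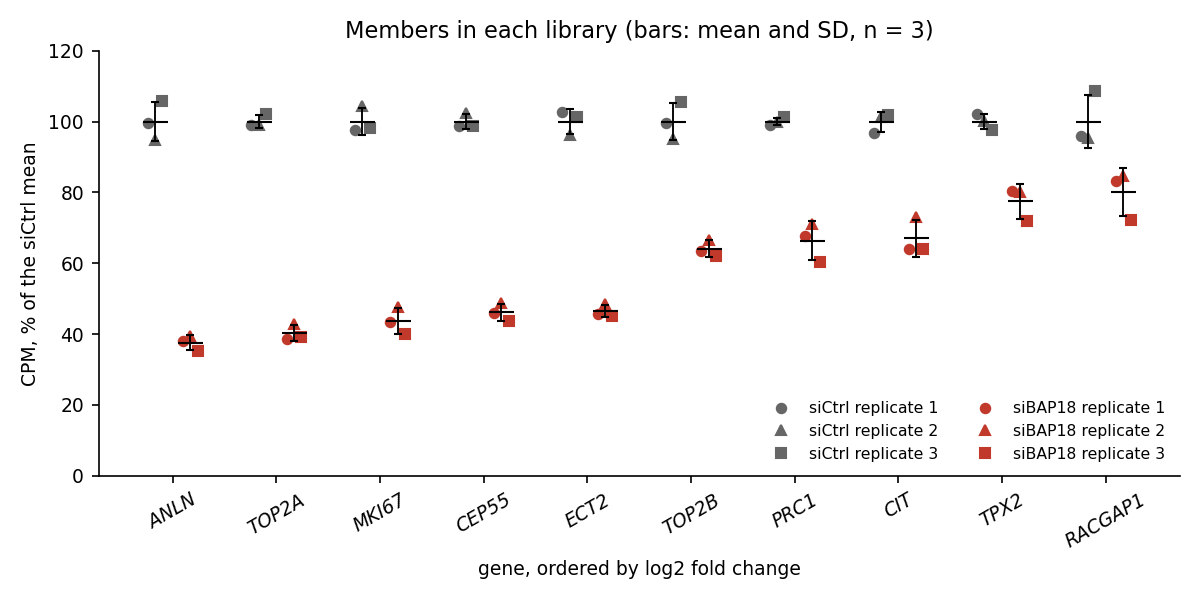
CPM of each gene in each library as a percentage of its siCtrl mean, with siCtrl in grey, siBAP18 in red, replicates as symbols, and bars giving mean and SD (n = 3). The siBAP18 mean is lowest for ANLN and highest for RACGAP1, whose edgeR fold changes correspond to 37.6% and 80.2% of siCtrl. No siBAP18 library reaches a siCtrl library in any gene.

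MKI67 was the most abundant of these genes in reads. Its CPM was 548.7, 586.7 and 552.1 in siCtrl and 244, 268 and 226 in siBAP18, with replicate 1 given first here and below. The groups were far apart, with siBAP18 at 43.7% of siCtrl on average, and replicate 2 was the highest of its group in both. The log2 fold change was -1.20 (SE 0.0716, edgeR adjusted p = 6.89e-13).

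Of the type II topoisomerases, TOP2A is the isoform of dividing cells and TOP2B is also made in cells that do not divide. TOP2A CPM was 169, 169 and 175 in siCtrl and 66.1, 73.2 and 67.1 in siBAP18. Its siBAP18 libraries lay at 40.2% of the siCtrl mean on average, a log2 fold change of -1.31 (SE 0.0673, edgeR adjusted p = 3.91e-14). TOP2B CPM was 202, 193 and 214 in siCtrl and 129, 135 and 126 in siBAP18. It fell by less, to 64.1%, with a log2 fold change of -0.64 (SE 0.0669, edgeR adjusted p = 1.43e-08). Its coefficient of variation of CPM was 5.22% in siCtrl and 3.72% in siBAP18, and no other of the 10 genes had a smaller one in siBAP18. In RPKM the SD of TOP2B was 1.47 in siCtrl and 1.53 in siBAP18. Per kilobase of exon, the ratio of TOP2A to TOP2B within a library was 0.791, 0.830 and 0.771 in siCtrl and 0.484, 0.511 and 0.504 in siBAP18. The isoform ratio thus had no overlap between groups, with a difference of -0.67 on the log2 scale, and the two-sided exact permutation test gave p = 0.1, the smallest that 3 against 3 allows.

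Spindle assembly and the midzone are represented by TPX2, which activates Aurora A kinase, and PRC1, the microtubule bundler. TPX2 CPM was 151, 148 and 144 in siCtrl and 119, 118 and 106 in siBAP18. These ranges are close to each other but apart, and the log2 fold change was -0.37 (SE 0.0671, edgeR adjusted p = 5.69e-05). PRC1 CPM was 251, 253 and 257 in siCtrl and 172, 181 and 153 in siBAP18. It was the steadiest of the genes across siCtrl, with a coefficient of variation of 1.08%, and one of the most variable in siBAP18, at 8.39%, where replicate 3 was the lowest. The log2 fold change was -0.59 (SE 0.0695, edgeR adjusted p = 1.06e-07). PRC1 shares 406 exonic bases, 7.35% of its exonic length, with the antisense gene PRC1-AS1 on the opposite strand, which had a log2 fold change of -0.66 (SE 0.0797, edgeR adjusted p = 1.81e-07). The libraries keep strand, but whether the counting used it is not given in the sources used here, so reads over the shared bases cannot be told apart.

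ECT2, the exchange factor that activates RhoA at the division plane, and RACGAP1, its partner on the central spindle, differed in size of change. ECT2 CPM was 66.3, 62.1 and 65.5 in siCtrl and 29.5, 31.3 and 29.2 in siBAP18. It fell to 46.5% of the siCtrl mean, a log2 fold change of -1.10 (SE 0.0688, edgeR adjusted p = 1.50e-12). RACGAP1 CPM was 32.1, 31.9 and 36.3 in siCtrl and 27.8, 28.3 and 24.1 in siBAP18. This was the weakest change of the 10, with siCtrl replicate 2 standing not far above siBAP18 replicate 2, and its log2 fold change was -0.32 (SE 0.0783, edgeR adjusted p = 0.00146). The RACGAP1 call was lost when the values were tested as log2(RPKM + 1) with limma and no filter on low values (-0.28, limma adjusted p = 0.0766). Per kilobase, ECT2 stood at 1.69, 1.59 and 1.47 times RACGAP1 in siCtrl and at 0.866, 0.904 and 0.989 times in siBAP18. The ratio was thus lower in every siBAP18 library than in every siCtrl library, with a mean difference of -0.78 on the log2 scale. In siBAP18 replicate 3 the 2 genes stood at nearly the same level. The exact permutation p was 0.1, again the smallest possible.

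**Figure D3:**
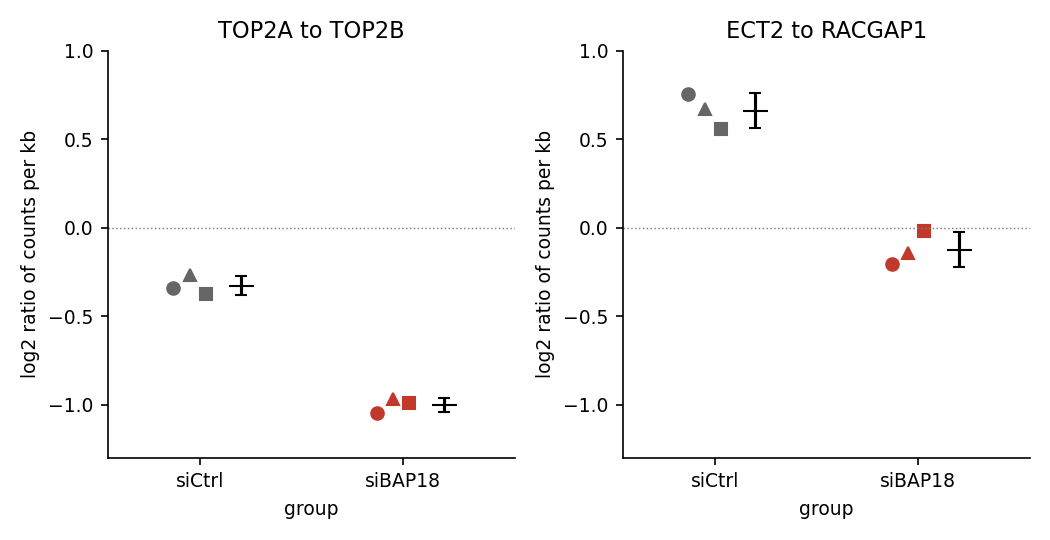
Log2 ratio of counts per kilobase of TOP2A to TOP2B (left) and of ECT2 to RACGAP1 (right) in each library, with replicates 1, 2 and 3 as circles, triangles and squares, and mean and SD beside them (n = 3). Both ratios are lower in all 3 siBAP18 libraries. The second falls below 0, the value at which both genes would have the same level, but only to -0.02 in siBAP18 replicate 3.

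At the contractile ring, anillin links actin, myosin, septins and RhoA. ANLN CPM was 94.7, 90.2 and 101 in siCtrl and 36.2, 37.6 and 33.6 in siBAP18. This was the largest fall of the 10 genes, to 37.6% of siCtrl, with a log2 fold change of -1.41 (SE 0.0712, edgeR adjusted p = 2.92e-14). CIT, the kinase that holds the ring and midbody together, had a CPM of 73.3, 76.6 and 77.2 in siCtrl and of 48.5, 55.3 and 48.5 in siBAP18. Replicate 2 was the highest siBAP18 library, still well under every siCtrl library, and the log2 fold change was -0.57 (SE 0.0702, edgeR adjusted p = 1.95e-07). CEP55, the midbody protein that brings TSG101 and ALIX to the bridge, had a CPM of 37.5, 38.9 and 37.5 in siCtrl and of 17.4, 18.5 and 16.6 in siBAP18. Its siBAP18 libraries were tightly grouped, and the log2 fold change was -1.11 (SE 0.0729, edgeR adjusted p = 3.75e-12), which corresponds to 46.2% of siCtrl.

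The sizes of change were graded. Ordered by fold change, the genes ran ANLN, TOP2A, MKI67, CEP55, ECT2, TOP2B, PRC1, CIT, TPX2 and RACGAP1. The ratio of neighbours within a library overlapped between groups for 6 of the 9 neighbouring pairs, and was apart for MKI67 and CEP55 (a difference of -0.08 on the log2 scale), for ECT2 and TOP2B (-0.46) and for CIT and TPX2 (-0.21). Of all 45 pairs, 37 were apart. These counts are a description with no test, and the share of pairs apart among other genes was not counted. The largest step thus lay between the 5 genes past the fold threshold and TOP2B, where ECT2 stood nearest the threshold on the inside, at -1.10, and TOP2B nearest on the outside, at -0.64.

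**Figure D4:**
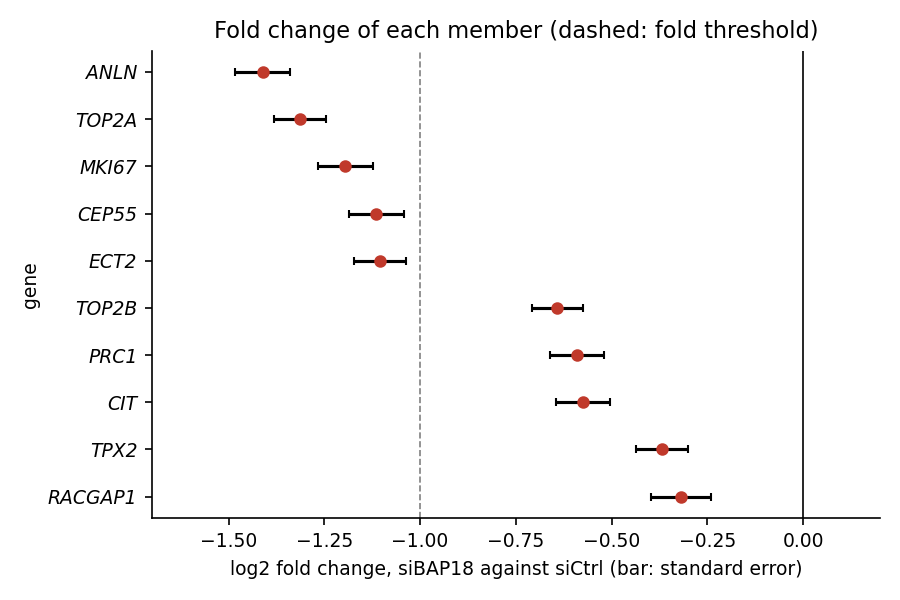
Log2 fold change of siBAP18 against siCtrl for each gene with its standard error, derived from the edgeR test. The dashed line marks the fold threshold of -1. ANLN, TOP2A, MKI67, CEP55 and ECT2 lie left of it, from -1.41 to -1.10, and the other 5 between -0.64 and -0.32.

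Level and fold change did not follow the same order. In RPKM, which allows for gene length, the siCtrl means were 45.8 for PRC1, 43.8 for MKI67, 40.9 for TPX2, 33.3 for TOP2B, 26.5 for TOP2A, 15.8 for ANLN, 11.7 for ECT2, 11.6 for CEP55, 7.43 for RACGAP1 and 5.71 for CIT. PRC1 and MKI67 overlapped in range, as did ECT2 and CEP55, and the other neighbours were apart. In siBAP18 the order became TPX2 (31.8 RPKM), PRC1 (30.6), TOP2B (21.4), MKI67 (19.2), TOP2A (10.7), RACGAP1 (5.98), ANLN (5.97), ECT2 (5.47), CEP55 (5.37) and CIT (3.85). The overlapping neighbours in siBAP18 were TPX2 and PRC1, TOP2B and MKI67, RACGAP1 and ANLN, ANLN and ECT2, and ECT2 and CEP55, and the other neighbours were apart. MKI67 thus overlapped PRC1 in siCtrl and TOP2B in siBAP18.

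Variation between libraries was small beside these changes in most of the genes, and least so in RACGAP1. The coefficient of variation of CPM was 1.08% to 7.47% in siCtrl and 3.72% to 8.57% in siBAP18, and was larger in siBAP18 for 9 of the 10 genes. The lowest count of any of the genes in any library was 673, for which counting alone gives an error of 3.85%. Within siBAP18, replicate 3 was the lowest for 8 genes and replicate 2 the highest for 9. The share of all genes with this order was not counted. Outside the 10 genes, TOP1 had the same order (338, 355 and 315 CPM) and RHOA the reverse (255, 234 and 277 CPM). Replicate 3 was also the library of lowest depth and replicate 2 the deepest, and the part of depth was not tested. The differences between siBAP18 libraries were smaller than those between group means, by the least in RACGAP1. Its CPM ran from 24.1 to 28.3 in siBAP18 and from 31.9 to 36.3 in siCtrl. Leaving out any 1 library kept all 10 genes lower at adjusted p.

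The genes whose profile over the 6 libraries lay nearest to that of MKI67, by root mean square distance of centred log2 CPM, were NXPE3 (0.0266), CROT (0.0378), SLC12A2 (0.0408), CMTM6 (0.0415) and PPP1R12A (0.0430), the last a myosin phosphatase subunit. CEP55 was the nearest of the other 9 genes described here (0.0508, place 15 of all genes), followed by TOP2A (place 74) and ECT2 (place 88). With 2 groups, a near profile means mostly a like fold change.

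The partners of these genes were followed in 6 gene lists by role, whose counts stand beside the 25.1% of all genes that were lower and the 24.5% that were higher at adjusted p. None of the listed genes was higher past both thresholds, which 4.72% of all genes were. Members outside the 2 lowest and 2 highest of a list that are named below were chosen after their values were seen.

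**Figure D5:**
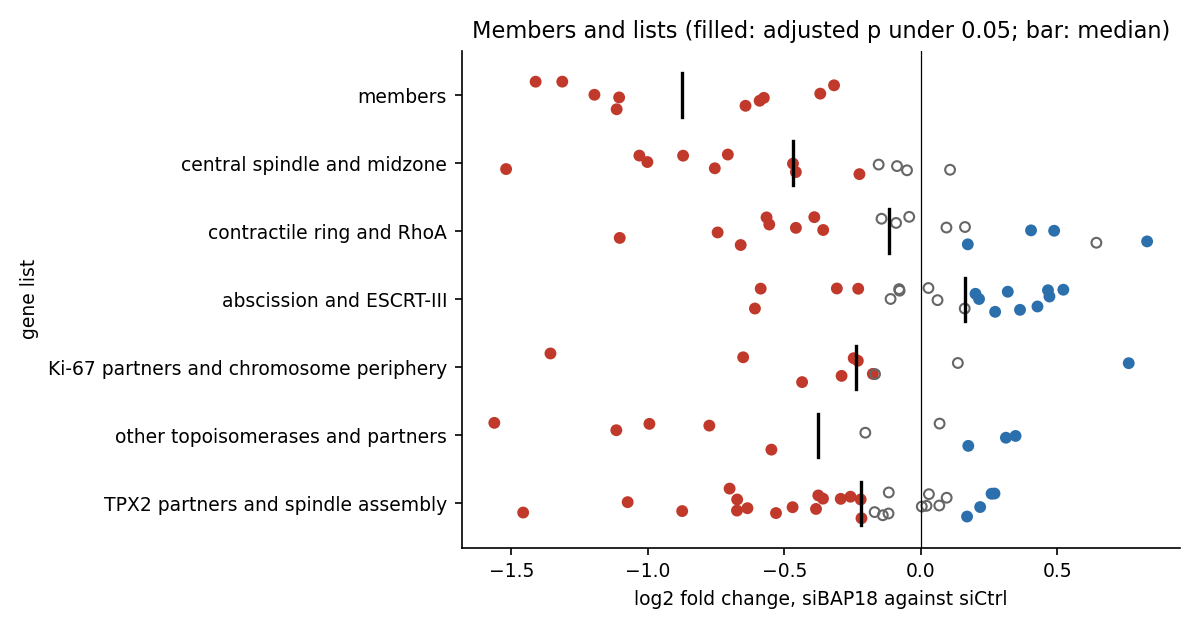
Log2 fold change of the 10 genes and of each gene in the 6 lists, red for lower and blue for higher at an edgeR adjusted p under 0.05, open for genes not past it, with the median as a bar. The medians run from -0.87 for the 10 genes to 0.16 for abscission and ESCRT-III, with -0.47 for the central spindle and midzone.

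Among 13 genes of the central spindle and midzone, 9 were lower, none was higher (1 without siBAP18 replicate 3) and 4 did not pass the test, with a median log2 fold change of -0.47. The share lower was 69.2%, against 25.1% of all genes. KIF14, a kinesin that binds PRC1 and citron kinase, had the lowest, with 13.3 ± 1.69 CPM in siCtrl and 4.62 ± 0.602 CPM in siBAP18 (SD, n = 3), a log2 fold change of -1.52 (SE 0.113, edgeR adjusted p = 3.79e-11). KIF23, which forms centralspindlin with RACGAP1, fell from 69.1 ± 0.645 to 33.7 ± 3.56 CPM (-1.03 on the log2 scale, edgeR adjusted p = 2.52e-11), while its partner RACGAP1 stood at -0.32. KIF20A, a midzone kinesin, stood at -1.001 (edgeR adjusted p = 1.20e-11). With it, 3 genes of the list were past both thresholds, but KIF20A missed the fold threshold in 10 of 16 other settings, with values from -1.04 to -0.91. Without siBAP18 replicate 3, 1 gene of the list was past both thresholds. Of the chromosomal passenger complex, CDCA8 stood at -0.46 (edgeR adjusted p = 8.02e-05) and INCENP at -0.22 (edgeR adjusted p = 0.00632), a call lost without siCtrl replicate 3 (0.0631) or siBAP18 replicate 1 (0.0521). Its kinase AURKB had a log2 fold change of -0.15 (edgeR adjusted p = 0.105), with 0.0476 when the replicate number was fitted as a block and 0.0394 without siBAP18 replicate 1. BIRC5 stood at -0.09 (edgeR adjusted p = 0.306), and PLK1, the kinase that licenses ECT2 binding to RACGAP1, at -0.05 (edgeR adjusted p = 0.587).

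Of 18 genes of the contractile ring and RhoA signalling, 8 were lower, 4 were higher and 6 did not pass, with a median of -0.12. The shares were 44.4% lower and 22.2% higher, against 25.1% and 24.5% of all genes, so that the higher share was near that of all genes. The number higher ran from 3 to 6 as each library was left out. DIAPH3, a formin that nucleates actin filaments, was lowest, at 12.5 ± 0.501 CPM in siCtrl and 5.80 ± 0.492 CPM in siBAP18 (-1.10 on the log2 scale, edgeR adjusted p = 8.66e-10). Among the septins, which bind anillin, SEPT11 stood at -0.74 (edgeR adjusted p = 4.98e-09), SEPT7 at -0.66 and SEPT2 at -0.46. SEPT6 did not pass (-0.14, edgeR adjusted p = 0.117), and SEPT9 rose by 0.40 on the log2 scale (edgeR adjusted p = 3.61e-05). Of the non-muscle myosin heavy chains, MYH9 rose from 2581 ± 65.1 to 4586 ± 209 CPM (0.83 on the log2 scale, edgeR adjusted p = 2.06e-10) and MYH14 by 0.49 (edgeR adjusted p = 3.08e-06), and MYH10 fell by 0.39 on the log2 scale (edgeR adjusted p = 0.000111). RHOA itself had 263 ± 7.74 CPM in siCtrl and 255 ± 21.8 CPM in siBAP18 (-0.04 on the log2 scale, edgeR adjusted p = 0.648), and its effector kinases ROCK1 and ROCK2 stood at -0.56 and -0.55.

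Genes of abscission and ESCRT-III, the membrane-cutting machinery downstream of CEP55, made up a list of 19. Of these, 4 were lower, 9 higher and 6 not past the test, with a median of 0.16. The share lower was 21.1%, near the 25.1% of all genes, and the share higher 47.4%, against 24.5%. The number higher ran from 7 to 9 as each library was left out, and was 10 with the replicate number as a block. Of the 9, the call of CHMP4C (0.20, edgeR adjusted p = 0.0414) was lost in 11 of 16 other settings. TSG101, bound by CEP55, rose from 54.7 ± 0.368 to 75.8 ± 2.13 CPM (0.47 on the log2 scale, edgeR adjusted p = 1.37e-06), and CHMP4B, a filament-forming ESCRT-III subunit, from 429 ± 17.5 to 616 ± 19.6 CPM (0.52, edgeR adjusted p = 3.29e-07). PDCD6IP (ALIX), also bound by CEP55, fell by 0.23 on the log2 scale (edgeR adjusted p = 0.00472). VPS4B, an ATPase that remodels ESCRT-III, and SPAST, which severs microtubules, were lowest, at -0.61 (edgeR adjusted p = 1.77e-07) and -0.59 (edgeR adjusted p = 2.90e-06), while the VPS4B paralogue VPS4A stood at 0.47 (edgeR adjusted p = 8.29e-06).

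Of 10 Ki-67 partners and proteins of the chromosome periphery, 7 were lower, 1 was higher and 2 did not pass, with a median of -0.24. Lower genes made up 70.0% of the list, against 25.1% of all genes. KIF15, a spindle kinesin that binds Ki-67, went from 15.1 ± 0.527 to 5.89 ± 0.518 CPM, a log2 fold change of -1.36 (SE 0.0944, edgeR adjusted p = 1.14e-11). PPP1CC, a protein phosphatase 1 catalytic subunit that Ki-67 recruits to chromosomes, stood at -0.65 (edgeR adjusted p = 2.08e-07). Among nucleolar proteins, NCL stood at -0.29 (edgeR adjusted p = 0.00286), RRP1B at -0.25 (edgeR adjusted p = 0.00349) and NPM1 at -0.18 (edgeR adjusted p = 0.0460, lost in 12 of 16 other settings), while PES1, a ribosome assembly factor, stood at 0.76 (edgeR adjusted p = 7.21e-09). Without siBAP18 replicate 2, 2 genes of this list were higher.

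Among 10 other topoisomerases and partners, 5 were lower, 3 higher and 2 not past the test, with a median of -0.38. Of all genes 25.1% were lower and 24.5% higher, and the 3 higher of 10 are near the latter share. BLM, the helicase that works with topoisomerase III, was lowest, at 7.82 ± 0.922 CPM in siCtrl and 2.62 ± 0.475 CPM in siBAP18 (-1.56 on the log2 scale, SE 0.136, edgeR adjusted p = 6.13e-10). TOPBP1, the topoisomerase II-binding protein of the replication checkpoint, went from 22.4 ± 0.758 to 10.3 ± 1.55 CPM (-1.12, edgeR adjusted p = 2.59e-10), and RMI2, a subunit of the BLM complex, stood at -0.99 (edgeR adjusted p = 1.20e-08). TDP2, which removes trapped topoisomerase II from DNA ends, stood at -0.55 (edgeR adjusted p = 5.97e-07). The enzymes of other types were higher or did not pass: TOP1MT at 0.35 (edgeR adjusted p = 7.34e-05), TOP3B at 0.31 (edgeR adjusted p = 0.00309), TOP1 at 0.17 (edgeR adjusted p = 0.0333, lost in 9 of 16 other settings) and TOP3A at 0.07 (edgeR adjusted p = 0.489).

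Of 29 TPX2 partners and spindle assembly genes, 16 were lower, 4 higher and 9 not past the test, with a median of -0.22. Lower genes made up 55.2% and higher genes 13.8%, against 25.1% and 24.5% of all genes. KIF11, the kinesin that pushes spindle poles apart, went from 43.8 ± 1.55 to 15.9 ± 0.649 CPM, a log2 fold change of -1.46 (SE 0.0728, edgeR adjusted p = 2.42e-14). NUSAP1, a spindle microtubule binder, went from 63.6 ± 3.82 to 30.2 ± 2.61 CPM (-1.07, edgeR adjusted p = 1.35e-11). AURKA, the kinase that TPX2 activates, stood at -0.36 (SE 0.0761, edgeR adjusted p = 0.000334), while TPX2 itself stood at -0.37. The small GTPase RAN, which frees TPX2 from importins, rose by 0.27 (edgeR adjusted p = 0.00126), and RANGAP1 stood at 0.26 (edgeR adjusted p = 0.00800). The RANGAP1 call was lost without siCtrl replicate 1 (0.0616) or siCtrl replicate 2 (0.0603), without which 1 and 2 genes of the list were higher in place of 4.

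Sequence shared with the siRNAs was looked at in the 3′ untranslated regions of all 10 genes. The study's methods list 3 siRNAs against BAP18, each of which has a short word that pairs with the seed of its antisense strand. The word of siBAP18#1, AATCACA, was in none of the 10 genes, against 14.1% of 13617 tested genes with an annotated region. That of siBAP18#2, AAGATTC, was in CIT and CEP55, against 11.2% of genes. That of siBAP18#3, ACTCAAC, was in none, against 6.85%. Since the siRNA used is not stated, these counts cover each candidate.

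Exons shared with other genes were short beside PRC1. TOP2B shares 28 bases with RARB, ANLN 78 with KIAA0895, CIT 81 with RP1-127H14.3 and RACGAP1 137 with AQP6, each on the opposite strand and at most 3.05% of the exonic length.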

How the data were processed

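RNA from 6 A549 cultures (3 siCtrl, 3 siBAP18) was poly(A)-selected, made into strand-marked libraries and read as 150 bp pairs, per the labels. The authors deposited 1 table of counts per gene with exonic lengths, and RPKM values that equal count over length and library total. The submitters' processing notes name the builds GRCm38 and hg38, and the coordinates used are hg38; aligner and counter are not given in the sources used here.

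Counts were tested with edgeR 4.0.16 (TMM scaling, filterByExpr, quasi-likelihood test, group only), adjusted by Benjamini-Hochberg over 20776 genes; genes were called at 0.05 on the adjusted p and, for both thresholds, beyond 1 on the log2 fold change in size. The procedure was tested on simulated data. CPM were computed with TMM library sizes. Ratios within a library were compared by two-sided exact permutation. DESeq2 1.42.0, limma 3.58.1, other scalings and filters, a replicate block and leaving out each library were alternatives. Replicate numbers did not pair the libraries (residual correlations of -0.02, 0.05 and 0.00379). Replicates of a group differed beyond counting noise, and more so in siBAP18. The chi-square per degree of freedom of library pairs was 4.14 to 4.81 in siCtrl and 11.2 to 25.8 in siBAP18. Motifs came from RefSeq promoters (GRCh38.p14), overlaps and untranslated regions from GENCODE 29.

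The genes, lists and tests were chosen with earlier results of these data known. Besides C17orf49 and the 10 genes, the text names, per list, the 2 lowest and 2 highest fold changes among genes past the adjusted p whose average log2 CPM reached 1, and the 5 genes nearest to MKI67; other list genes it names were chosen after their values were seen. The error given for the lowest count covers counting only. Standard errors were derived from the edgeR test, as the size of the log2 fold change over the square root of its F statistic. These standard errors and the SDs also take in variation between the libraries of a group.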

Additional observations from a re-analysis of the deposited data

How the results depend on the processing

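Under 16 other settings, 159 of 160 fold changes of the 10 genes kept their direction and their side of the adjusted p threshold; the exception was RACGAP1 under limma on log2(RPKM + 1) with no filter. The number of the 10 genes lower past both thresholds was 5 in the main fit and in every other setting but limma on log2(RPKM + 1), with which it was 3 both with a mean RPKM of at least 0.5 and without a filter; the added 1 shrinks the change of low values by construction. In these fits 0 genes of the central spindle, contractile ring, Ki-67 partner and topoisomerase lists were lower past both thresholds. These fits and limma on log2(RPKM + 0.1) left 348, 345 and 909 genes past both thresholds over the whole table, against 1758. With the replicate number as a block, 10 genes were lower, 5 were past both thresholds and the median was -0.87, and the block changed no call of the 10 genes. Leaving out 1 library at a time kept the log2 difference of the TOP2A to TOP2B ratio between -0.70 and -0.64 and that of ECT2 to RACGAP1 between -0.84 and -0.74. Of 1181 values of the lists and other named genes, 1115 kept direction and side; RHOA, at -0.04, turned to 0.018 without siBAP18 replicate 2 and ranged from -0.10 to 0.018 as each library was left out. With 3 libraries a group, the exact permutation test cannot go below 0.10.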
